A study of Mus musculus with 17 samples.

Results

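The 9 genes described here encode the recombinase of meiotic strand invasion and the cofactors that load, stabilise or stimulate it. They were chosen by name as the rows of the deposited gene table for Dmc1, Psmc3ip, Mnd1, Rad51c, Xrcc3, Brca2, Hsf2bp, Spata22 and Meiob; the rule uses no measured value, although the choice was made with earlier results of these data known. They are 9 of the 23282 genes in that table, where Meiob stands under its older symbol 4930528F23Rik.

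Poly(A) RNA of sorted mouse spermatogenic cells was sequenced in 17 libraries. The cells were spermatogonia (SPG), preleptotene spermatocytes (PreL) and leptotene and zygotene spermatocytes (LZ), with 3 wildtype (WT) and 3 Nat10-SKO libraries at each stage, except for LZ, where 2 WT libraries stood against 3 SKO libraries. NAT10 is the acetyltransferase that writes N4-acetylcytidine on RNA. WT mice were labelled Wildtype and SKO mice Stra8-cre_Nat10_KO, both on a C57BL/6 background. The study's methods describe SKO males with 1 floxed and 1 deleted Nat10 allele and a Stra8-GFPCre knock-in, which acts in germ cells shortly before meiosis. The cells were taken by flow cytometry on DNA dye fluorescence, the age of the animals behind the libraries is not given in the sources used here, and neither is whether each library came from its own animal. The p-values therefore measure the spread between these libraries.

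In meiosis, programmed DNA breaks are resected to single strands, which are first covered by replication protein A together with the MEIOB-SPATA22 complex. BRCA2, in meiotic cells joined by HSF2BP, then helps to exchange this cover for a recombinase filament, and DMC1 is the recombinase that only meiotic cells make. The PSMC3IP-MND1 heterodimer (HOP2-MND1) stabilises the filament and helps it to pair with the homologous duplex, while RAD51C and XRCC3 form a complex of recombinase paralogues that acts in the same pathway.

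Promoter sequence is shown for 4 members, because the results below turn on Dmc1, on the partners Psmc3ip and Mnd1, whose transcripts differed in opposite directions between the genotypes, and on Brca2 as a member whose level did not pass a test between genotypes. RefSeq promoters (build GRCm38.p6) were matched for 8 of the 9 members, with 9 windows since Rad51c has 2, and the 250 bases before each start were searched on both strands. The letters TCCCGC, a core bound by E2F factors, were found in 7 of the 9 windows and in 16.9% of all 32851 windows. The letters TGACGT, a cyclic AMP response element core, were found in 2 of the 9, those of Brca2 and of 1 Rad51c start, against 6.47% of all, and in both the matches on the 2 strands overlap each other. TGCGCA, a core of NRF1 sites that reads the same on both strands, was found in 2 of the 9 (Hsf2bp and Spata22) against 6.43%, CCAAT in 3 of the 9 (Xrcc3, Psmc3ip and Spata22) against 33.8%, and the E-box letters CACGTG in 0 of the 9 against 6.02%. Capitals in the lines below mark these letters on either strand, and each line holds the 150 bases just before the start, 5′ to 3′ on the strand of the gene. They lie at chr15:79605110-79605259 (minus strand) for Dmc1, chr11:101095437-101095586 (minus) for Psmc3ip, chr3:84155787-84155936 (minus) for Mnd1 and chr5:150522471-150522620 (plus) for Brca2.
Dmc1: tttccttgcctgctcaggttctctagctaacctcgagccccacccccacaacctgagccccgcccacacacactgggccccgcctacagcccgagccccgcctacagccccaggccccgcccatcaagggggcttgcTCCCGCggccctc
Psmc3ip: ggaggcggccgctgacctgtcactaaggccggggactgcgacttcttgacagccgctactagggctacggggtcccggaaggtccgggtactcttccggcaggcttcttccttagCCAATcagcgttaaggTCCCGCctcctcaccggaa
Mnd1: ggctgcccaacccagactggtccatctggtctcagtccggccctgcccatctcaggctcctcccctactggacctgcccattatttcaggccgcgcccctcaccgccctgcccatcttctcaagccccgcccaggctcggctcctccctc
Brca2: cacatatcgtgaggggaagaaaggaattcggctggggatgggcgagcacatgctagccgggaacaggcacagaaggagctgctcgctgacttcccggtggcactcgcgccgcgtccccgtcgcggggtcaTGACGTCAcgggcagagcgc
Of the 4 stretches, that of Mnd1 holds none of these letters, that of Psmc3ip holds CCAAT and TCCCGC, that of Dmc1 holds TCCCGC close to the start, and that of Brca2 holds the overlapping TGACGT matches.

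The libraries held 5812380 to 13820953 recovered reads, with the fewest in SKO LZ (5812380 to 7609420) and the most in WT LZ (13666762 to 13820953). Nat10 itself had rescaled values of 542 to 823 in WT and 184 to 469.7 in SKO libraries, with no overlap at any stage, although reads from exons outside the deleted part still count towards it. Levels are given as rescaled values, which are the deposited spike-in calibrated values brought to a common scale by the median gene, so each difference is one relative to most other genes. Fewer cells of a type and less RNA per cell cannot be told apart in such bulk samples. The WT SPG libraries summed to 653 to 779.6 RPM (recovered reads scaled to the total of the library) over 5 markers of differentiating spermatogonia, but to only 15.9 to 25.6 over 7 markers of undifferentiated spermatogonia, of which 1 to 2 were at 0. Markers of other cells moved with the genotype. In LZ, 25.8% of all genes were called lower and 13.4% higher. There, 7 of 8 late spermatocyte markers were called lower (summed 3398 to 5849 RPM in WT, 119 to 131 in SKO), as were 7 of 7 spermatid markers (560.4 to 957 in WT, 7.22 to 9.29 in SKO), while 4 of 6 Leydig cell markers were called higher (20.0 to 56.7 in WT, 77.9 to 227 in SKO). From PreL to LZ in SKO, only 2 of the 7 spermatid markers had enough reads to be tested, and from SPG to PreL in SKO also only 2. Their count in LZ, and those in SPG and PreL given next, therefore rest largely on reads in WT. In SPG and PreL, 4 and 6 of the 8 late spermatocyte markers and 5 and 4 of the 7 spermatid markers were called lower (2.06% and 5.83% of all genes), and 5 and 6 of the 6 Leydig markers higher (3.95% and 5.32%). Of 6 macrophage markers, 3, 1 and 3 were called higher in SPG, PreL and LZ, where 3 had enough reads to be tested in LZ (summed 2.03 to 3.07 RPM in WT, 7.40 to 26.0 in SKO).

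The early meiotic markers moved with the genotype as well. Their sum was 4855 to 4976 RPM in WT against 6654 to 6952 in SKO in SPG, 6647 to 7413 against 8336 to 11860 in PreL and 7027 to 8231 against 4062 to 6100 in LZ, without overlap in RPM at any stage. As rescaled values, the scale used for the members, the sums stayed apart in SPG only. They overlapped in PreL (150258 to 170794 in WT, 166840 to 271229 in SKO) and in LZ (136613 and 208191 in WT, 128572 to 176606 in SKO). Of these 12 markers, 0, 1 and 0 were called higher and 0, 0 and 2 lower at the 3 stages, and their median log2 fold change was 0.40, 0.32 and -0.66, close to the medians of the members given below. The 5 markers of differentiating spermatogonia summed to 653 to 779.6 RPM in WT against 886 to 1068 in SKO in SPG. In PreL the sums were 954 to 1061 against 685 to 780, and in LZ 577 to 599 against 410 to 465. Of 4 Sertoli cell markers tested, 1, 2 and 0 were called higher in SKO at the 3 stages. The part of all these cells in the results on the 9 members was not tested.

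The first question was how the strand invasion genes differed between SKO and WT cells of the same stage. A gene was called where the limma test across all genes gave an adjusted p under 0.05 and the log2 fold change passed 1 in size. In SPG, where 8 members had enough reads to be tested, Mnd1 was called higher, against 3.95% of all 12846 genes tested, and 0 members were called lower, against 2.06%. At any fold, adjusted p was under 0.05 for 3 members that were higher (Dmc1, Mnd1 and Hsf2bp; 6.22% of all genes) and for 1 that was lower (Psmc3ip; 4.84%). In PreL, 2 of 9 members were called higher, Mnd1 and Meiob (5.32% of all 13132 genes), and 0 lower (5.83%), and at any fold Psmc3ip was the 1 lower member with adjusted p under 0.05 (10%) beside these 2 (7.87%). In LZ, Psmc3ip and Hsf2bp were called lower, where 25.8% of all 13724 genes were, and 0 of 9 members higher, where 13.4% were. Xrcc3 also passed both thresholds as lower. With 11, 11 and 5 reads in SKO LZ, it reached the minimum mean of 10 reads for a test only through WT LZ. Its value is therefore a description and is not counted with the other members. At any fold, Rad51c and Meiob were also lower in LZ with adjusted p under 0.05 (31.1% of all genes), against 0 higher (19.8%). The share called lower in LZ was near that of all genes. In LZ, 7 of the 9 members had every rescaled SKO value under the lowest WT value (39.6% of all genes). Mnd1 had every SKO value above the highest WT value (30.7%), and Dmc1 overlapped. Xrcc3 is among these 7 and enters the LZ median of the members below, although it reached the minimum reads only through WT LZ. Of the counts of 0, those of lower members in SPG and PreL held 3 and 1 members with an unadjusted p under 0.05, that of higher members in LZ held 0, and edgeR and DESeq2 also gave 0 in each. The median log2 fold change of the members was 0.30 in SPG, 0.27 in PreL and -0.68 in LZ, and that of all genes 0.00136, 0.04 and -0.13. Of all genes called, 65.7% were higher in SKO SPG and 47.7% in SKO PreL, and 40.8% and 85.5% without rescaling.

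**Figure D1:**
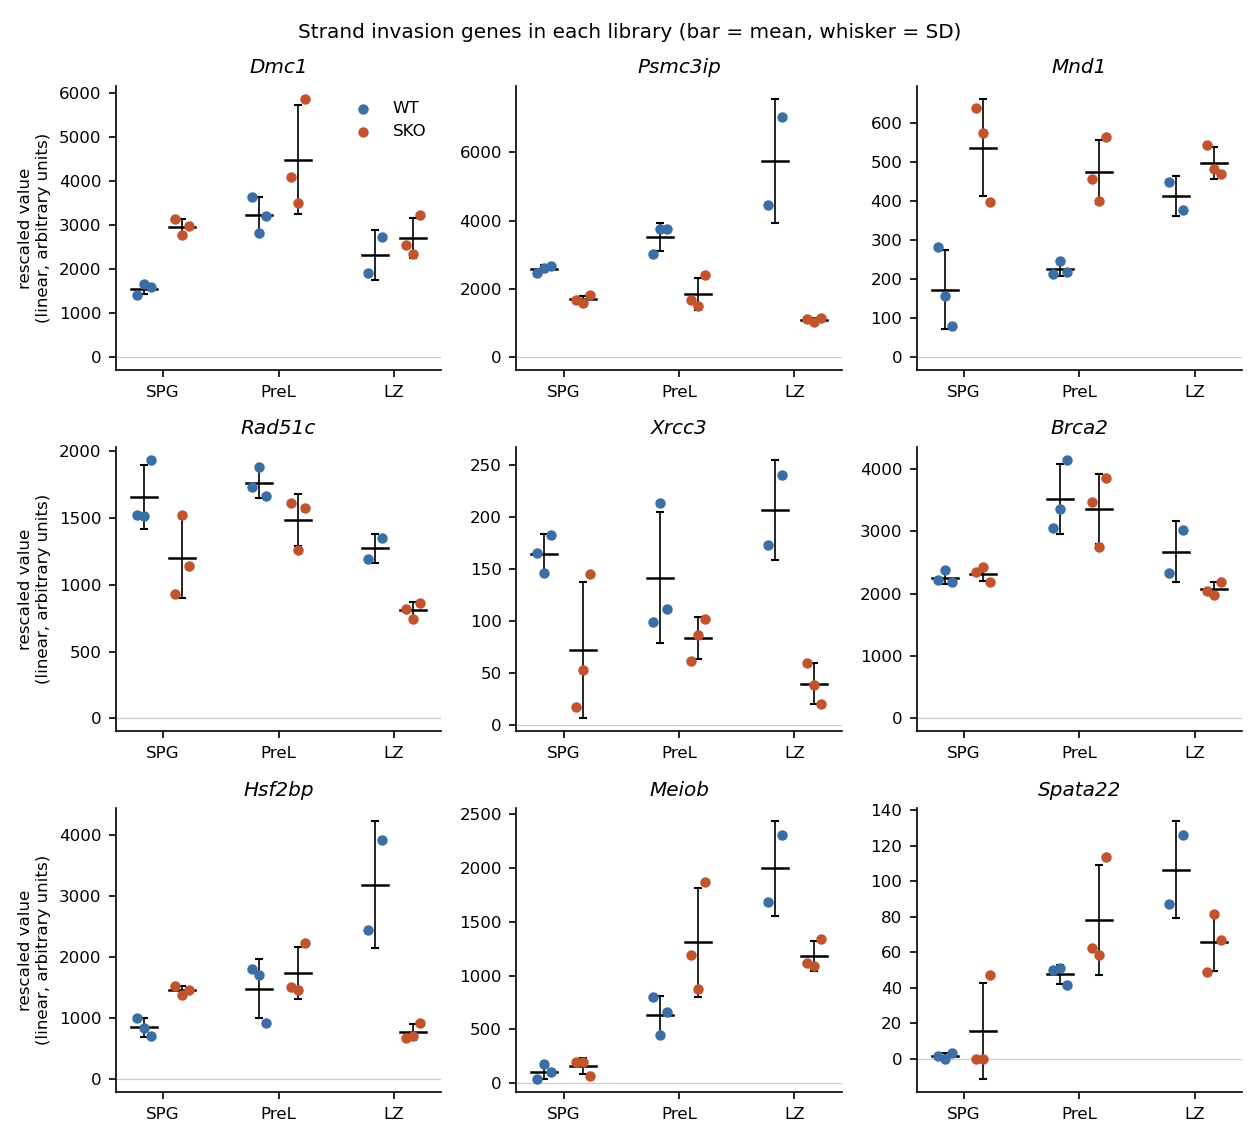
Rescaled value (linear axis from the deposited spike-in calibrated values, arbitrary units) of each member in each library, by stage and genotype, with the mean as a bar and the SD as a whisker. Psmc3ip lies lower in SKO at all 3 stages and Mnd1 higher, while Hsf2bp and Xrcc3 have their lowest SKO means in LZ, of 775 and 39.9.

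**Figure D2:**
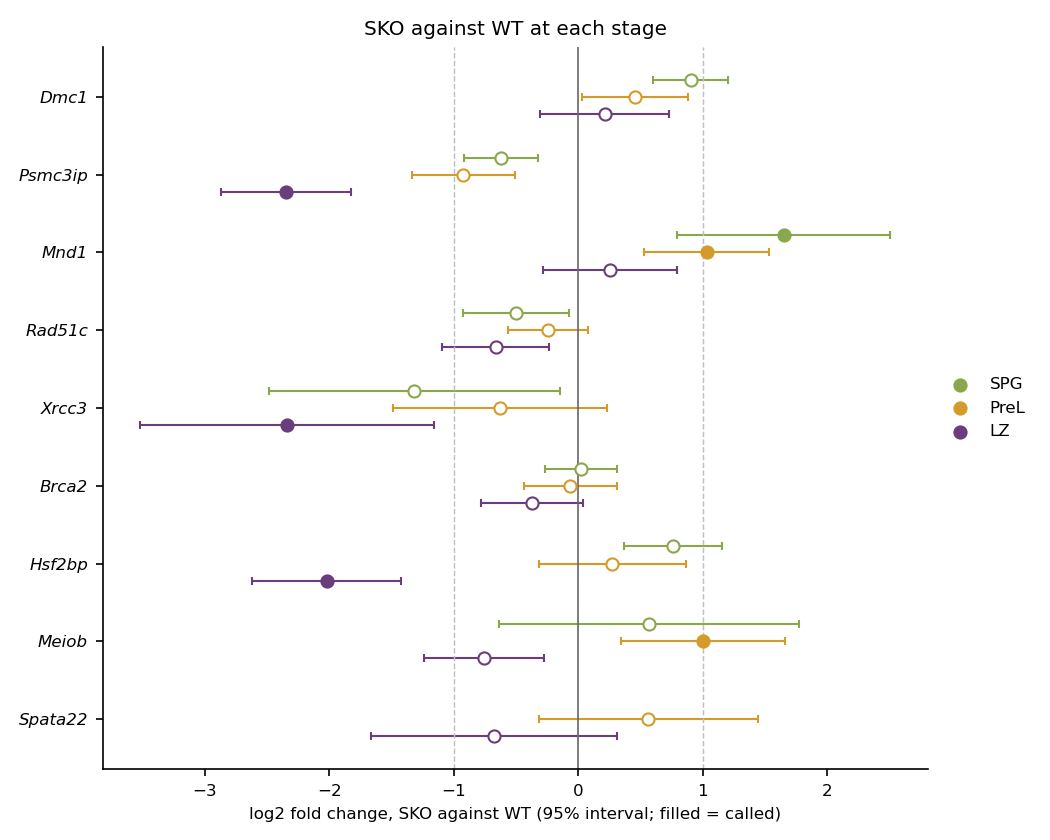
Log2 fold change of SKO against WT with its 95% interval from limma, for each member and stage; filled points passed both thresholds and dashed lines mark a log2 fold change of 1 in either direction. The largest decreases are those of Psmc3ip (-2.35), Xrcc3 (-2.34) and Hsf2bp (-2.02) in LZ, and Spata22 has no point in SPG because it was not tested there. The Xrcc3 point in LZ is a description, since Xrcc3 reached the minimum reads only through WT LZ.

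Dmc1 (chr15:79561497-79605109, minus strand, GRCm38; 14 merged exons) encodes the meiotic recombinase itself. In WT its rescaled values were 1421, 1657 and 1606 in SPG, 3645, 2824 and 3198 in PreL, and 1924 and 2734 in LZ. The SKO values were 3148, 2775 and 2969.9 in SPG, 4097, 3503 and 5862 in PreL, and 2554, 2351 and 3222 in LZ. The SKO libraries thus lay above every WT library in SPG, and overlapped them in PreL and LZ. In SPG the difference was a log2 fold change of 0.90 (SE 0.14, adjusted p = 0.0015), just under the fold threshold, which makes SKO spermatogonia 1.87-fold higher. It was 0.46 (SE 0.19, adjusted p = 0.124) in PreL and 0.21 (95% interval -0.31 to 0.73, adjusted p = 0.458) in LZ, where it turned to -0.09 without WT LZ replicate 2. The mean levels across the 6 groups ran from 1561 ± 124 (SD, n = 3) in WT SPG through 2329 ± 572 (n = 2) in WT LZ, 2709 ± 456 in SKO LZ, 2964 ± 187 in SKO SPG and 3222 ± 411 in WT PreL to 4487 ± 1227 in SKO PreL. Each group overlapped the next in that order, except for WT SPG, whose libraries all lay below those of WT LZ.

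Psmc3ip (chr11:101091823-101095436, minus strand; 6 merged exons) encodes HOP2, which pairs with MND1. Its rescaled values in WT were 2484, 2619 and 2680.3 in SPG, 3036, 3747 and 3744 in PreL, and 4456 and 7026 in LZ. In SKO they were 1674, 1605 and 1814 in SPG, 1688, 1504 and 2399 in PreL, and 1138, 1037 and 1145 in LZ. Every SKO library was lower than every WT library of its stage. The log2 fold change was -0.62 (SE 0.14, adjusted p = 0.0114) in SPG, -0.92 (SE 0.18, adjusted p = 0.00981) in PreL and -2.35 (SE 0.22, adjusted p = 0.000144) in LZ, where it passed the fold threshold and SKO cells held 5.10-fold less. The genotype effect in LZ differed from that in PreL by -1.40 on the log2 scale (SE 0.26, adjusted p = 0.000371 for the interaction). Of its 1818 exon bases, 385 lie opposite exons of Mlx, and since the libraries do not keep the strand, reads there cannot be told apart. Mlx had a log2 fold change of 0.39 (adjusted p = 0.339) in SPG, -0.16 (adjusted p = 0.689) in PreL and -0.55 (adjusted p = 0.138) in LZ.

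Mnd1 (chr3:84087933-84155786, minus strand; 8 merged exons), which encodes the other subunit of the heterodimer, went the other way. Its rescaled values in WT were 281, 157 and 80.6 in SPG, 213, 246 and 219 in PreL, and 449 and 378 in LZ. In SKO they were 639, 574 and 398 in SPG, 458, 401 and 565 in PreL, and 545, 481 and 468 in LZ. As rescaled values, every SKO library was higher than every WT library of its stage. In RPM the LZ libraries overlapped, at 23.1 and 14.9 in WT and 17.2, 17.9 and 16.2 in SKO. Mnd1 rose in SKO SPG by a log2 fold change of 1.65 (SE 0.40, adjusted p = 0.0173) and in SKO PreL by 1.03 (SE 0.22, adjusted p = 0.014), while the difference in LZ was 0.25 (95% interval -0.29 to 0.79, adjusted p = 0.389) and reached 1.17 once the trend with transcript length and GC content was removed. The SPG call was lost without WT SPG replicate 3, SKO SPG replicate 1 or SKO SPG replicate 3, at 1.23 to 1.60, and the PreL call without WT PreL replicate 1, SKO PreL replicate 1 or SKO PreL replicate 3, at 0.90 to 1.05. A stretch of 824 bases of its transcript also occurs in the pseudogene Mnd1-ps, so that reads could have been shared between them.

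Since both genes of this heterodimer were read in the same libraries, their ratio does not depend on the scaling. WT libraries held 8.83, 16.6 and 33.3 Psmc3ip reads for each Mnd1 read in SPG, 14.3, 15.2 and 17.1 in PreL, and 9.93 and 18.6 in LZ. SKO libraries held 2.62, 2.80 and 4.56 in SPG, 3.69, 3.75 and 4.25 in PreL, and 2.09, 2.15 and 2.45 in LZ. All 9 SKO libraries thus lay below all 8 WT libraries. The log2 ratio differed between SKO and WT by -2.39 in SPG, -1.99 in PreL and -2.61 in LZ, each with p = 0.1 in a two-sided exact permutation test, which is the smallest p that this number of libraries allows. For Dmc1 and Psmc3ip, the log2 ratio was higher in SKO by 1.54, 1.39 and 2.56 at the 3 stages, with the same p and no overlap.

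**Figure D3:**
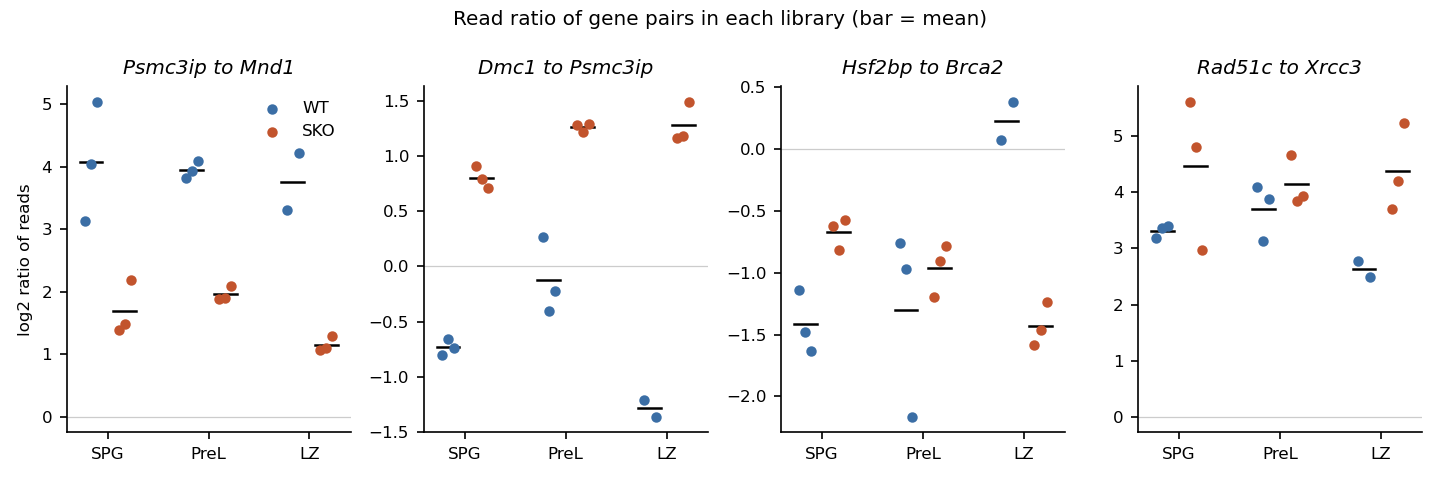
Log2 ratio of the recovered reads of 2 members within each library, by stage and genotype, with the mean as a bar. WT and SKO libraries are separated at every stage for Psmc3ip to Mnd1 and for Dmc1 to Psmc3ip, and Hsf2bp to Brca2 lies higher in SKO SPG and lower in SKO LZ, where the means are -1.43 in SKO and 0.22 in WT.

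Rad51c (chr11:87376645-87404954, minus strand; 11 merged exons) and Xrcc3 (chr12:111803192-111813873, minus strand; 9 merged exons) encode the pair of paralogues. Rad51c values in WT were 1523, 1515 and 1932 in SPG, 1728, 1881 and 1661 in PreL, and 1194 and 1349 in LZ. In SKO they were 933, 1521 and 1138 in SPG, 1613, 1261 and 1574 in PreL, and 817, 747 and 865 in LZ. SKO lay below WT without overlap in PreL and LZ, by a log2 fold change of -0.24 (SE 0.14, adjusted p = 0.269) and -0.66 (SE 0.18, adjusted p = 0.0192), the latter under the fold threshold. In SPG the value was -0.50 (SE 0.20, adjusted p = 0.125). A stretch of the Rad51c transcript, of up to 133 bases, also occurs in 213 other genes, so that some of its reads may be uncertain. Xrcc3 was read far less often. Its values in WT were 166, 146 and 183 in SPG, 99.5, 214 and 111 in PreL, and 173 and 241 in LZ, and in SKO 18.0, 53.4 and 145 in SPG, 62.2, 87.0 and 102 in PreL, and 59.9, 38.9 and 20.9 in LZ. The SKO LZ libraries rested on only 11, 11 and 5 reads, so that Xrcc3 reached the minimum mean of 10 reads there only through WT LZ. As a description only, its log2 fold change in LZ was -2.34, and -2.11 without WT LZ replicate 3. In SPG it was -1.32 (SE 0.54, adjusted p = 0.14), with the SKO libraries spread over 18.0 to 145, and in PreL -0.63 (SE 0.38, adjusted p = 0.279). The read ratio of Rad51c to Xrcc3 was 6.90 and 5.61 in WT LZ against 13.6, 19.2 and 41.4 in SKO LZ. This log2 difference of 1.75 rests on the same 11, 11 and 5 Xrcc3 reads and is likewise a description.

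Brca2 (chr5:150522630-150570329, plus strand; 28 merged exons), the loader of the recombinases, had no genotype difference that passed the test. Its values in WT were 2214, 2372 and 2188 in SPG, 3054, 3362 and 4144 in PreL, and 2333 and 3017 in LZ. In SKO they were 2345, 2423 and 2188 in SPG, 3470.0, 2748 and 3851 in PreL, and 2048, 1976 and 2194 in LZ. The libraries overlapped in SPG and PreL, and SKO lay just below WT in LZ. The log2 fold change was 0.02 (95% interval -0.27 to 0.31, adjusted p = 0.942) in SPG, -0.06 (-0.44 to 0.31, adjusted p = 0.822) in PreL and -0.37 (-0.79 to 0.04, adjusted p = 0.116) in LZ. All 3 intervals lie within a log2 fold change of 1 in either direction. Without rescaling, the value was -0.25 in SPG and 0.66 in PreL, where the median of all genes then stood at -0.25 and 0.73.

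Hsf2bp (chr17:31944769-32036349, minus strand; 12 merged exons) encodes the protein that binds BRCA2 in meiotic cells. Its values in WT were 1005, 849 and 704 in SPG, 1799.8, 1714 and 925 in PreL, and 2449 and 3922 in LZ. In SKO they were 1524, 1376 and 1470.1 in SPG, 1515, 1467 and 2234 in PreL, and 681, 715 and 928 in LZ. The SKO libraries were thus all higher in SPG, overlapped in PreL and were all lower in LZ. The log2 fold change was 0.76 (SE 0.18, adjusted p = 0.0177) in SPG, under the fold threshold, 0.27 (SE 0.26, adjusted p = 0.504) in PreL and -2.02 (SE 0.26, adjusted p = 0.000549) in LZ, so that Hsf2bp fell 4.06-fold there. The LZ effect differed from the PreL effect by -2.26 (SE 0.36, adjusted p = 8.42e-05 for the interaction). Within a library, the log2 read ratio of Hsf2bp to Brca2 differed by 0.75 in SPG, 0.34 in PreL and -1.65 in LZ between SKO and WT, with exact permutation p = 0.1, 0.7 and 0.1. The gene Brme1 (4930432K21Rik in the table), whose product binds HSF2BP, is on the partner list below and had means of 989 ± 399 (SD, n = 2) in WT LZ and 278 ± 63.2 (n = 3) in SKO LZ.

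Meiob (chr17:24804289-24839788, plus strand; 14 merged exons) and Spata22 (chr11:73329741-73346044, plus strand; 9 merged exons) encode the complex on single-stranded DNA. Meiob values in WT were 32.8, 177 and 104 in SPG, 800.3, 449 and 662 in PreL, and 1685 and 2309.8 in LZ, and in SKO 198, 196 and 68.1 in SPG, 1189, 872 and 1869 in PreL, and 1116, 1090.4 and 1342 in LZ. SKO lay above WT in PreL and below WT in LZ, with no overlap in either. Meiob rose in SKO PreL by a log2 fold change of 1.003 (SE 0.29, adjusted p = 0.043), a value at the edge of both thresholds. That call was lost in 10 of 16 other settings, among them those without WT PreL replicate 2 or 4 or SKO PreL replicate 1 or 3, at 0.72 to 1.04. In LZ the difference was -0.76 (SE 0.21, adjusted p = 0.0183), under the fold threshold, and in SPG 0.57 (95% interval -0.64 to 1.78, adjusted p = 0.572). The difference between the LZ and PreL effects was -1.74 (SE 0.66, adjusted p = 0.0452), lost in 12 of 19 other settings.

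Spata22 was the member with the fewest reads. It had 0 to 2 reads in the WT SPG libraries and 0, 0 and 27 in the SKO SPG libraries, so that it was not tested in SPG, and the single SKO library with 27 reads (rescaled value 47.1) stood apart from the rest. Its rescaled values in WT were 49.8, 51.3 and 41.5 in PreL and 87.2 and 126 in LZ, and in SKO 62.2, 58.6 and 114 in PreL and 49.0, 81.4 and 66.9 in LZ. As for Meiob, SKO lay above WT in PreL and below WT in LZ without overlap, yet neither difference passed the test, at a log2 fold change of 0.56 (SE 0.39, adjusted p = 0.347) in PreL and -0.68 (SE 0.42, adjusted p = 0.218) in LZ. Of its 1274 exon bases, 1025 are shared on the same strand with Gm49340, so that reads could have been assigned to neither or either gene. The Meiob to Spata22 read ratio was 8.75 to 16.1 in WT and 14.9 to 19.1 in SKO PreL, and 18.4 and 19.3 in WT LZ against 13.4 to 22.8 in SKO LZ, with exact permutation p = 0.4 and 1.

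The second question was how the members changed from stage to stage within each genotype. From SPG to PreL in WT, Meiob was called higher with a log2 fold change of 2.60 (SE 0.47, adjusted p = 0.0122), where 2.54% of all 12657 genes were, and 0 members were called lower, where 1.21% were. Spata22 also passed both thresholds, at 1.90, but with 0 to 2 reads in WT SPG against 25, 24 and 19 in WT PreL it reached the minimum of 10 reads only through the stage where it was high, so that its value is a description and is not counted with Meiob. Its thresholds were passed in 4 of 12 other settings, and missed without WT SPG replicate 1, 2 or 3, without WT PreL replicate 4, without rescaling, with an added constant of 1 or 50, and by edgeR. Dmc1 was higher by 0.999 (SE 0.15, adjusted p = 0.00601), a value that falls just under the threshold and was called by edgeR and DESeq2, and Brca2 by 0.59 (SE 0.15, adjusted p = 0.0365). From SPG to PreL in SKO, 1 member was called, Meiob at 3.06 (SE 0.40, adjusted p = 0.00614), against 1.63% of all genes that were called higher and 0.955% lower. Dmc1 had 0.58 (SE 0.18, adjusted p = 0.0849) and Brca2 0.54 (SE 0.15, adjusted p = 0.0608) there. The difference in genotype effect between PreL and SPG passed the test for 0 members in either direction by limma, edgeR or DESeq2, with 0 at an unadjusted p under 0.05, and for 0.111% of all genes towards lower and 0.251% towards higher values. Higher values made up 63.1% of the SKO calls from SPG to PreL and 99.5% without rescaling, and 69.4% and 97.6% of the calls in the difference.

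From PreL to LZ, Meiob rose in WT by 1.51 (SE 0.30, adjusted p = 0.00603), the 1 member called higher where 18.8% of all 13759 genes were, and 0 were called lower, where 7.80% were. That call was lost at 1.30 without WT LZ replicate 3, and the WT call of Meiob from SPG to PreL at 2.70 without WT SPG replicate 3. Hsf2bp was higher by 0.98 (SE 0.32, adjusted p = 0.0416) and Rad51c lower, at -0.61 (SE 0.21, adjusted p = 0.0473), both under the fold threshold. Psmc3ip had 0.54 (SE 0.23, adjusted p = 0.102), Mnd1 0.71 (SE 0.34, adjusted p = 0.131) and Dmc1 -0.62 (SE 0.22, adjusted p = 0.0546), with the Psmc3ip libraries all higher and the Dmc1 libraries all lower in LZ. In SKO, Hsf2bp fell over the same step, at -1.18 (SE 0.21, adjusted p = 0.00282), the 1 member called lower where 6.93% of all 12477 genes were. None was called higher by limma, edgeR or DESeq2, with 0 at an unadjusted p under 0.05, where 10.6% of all genes were. The Hsf2bp call was lost at -0.96 without SKO PreL replicate 3. Other members were lower from PreL to LZ in SKO with adjusted p under 0.05 but under the fold threshold: Rad51c at -0.89 (SE 0.15, adjusted p = 0.00222), Psmc3ip at -0.75 (SE 0.19, adjusted p = 0.0151), Dmc1 at -0.74 (SE 0.22, adjusted p = 0.0263) and Brca2 at -0.71 (SE 0.16, adjusted p = 0.00755). The share of all genes that passed at any fold was not determined for this step. On the calibrated values without rescaling, which rose for most genes from PreL to LZ by a median of 1.86 in WT and 0.81 in SKO, Dmc1, Rad51c and Brca2 turned higher in WT LZ, and Dmc1, Psmc3ip, Brca2, Spata22 and Meiob in SKO LZ. Of all calls in these 2 steps, 70.7% in WT and 60.4% in SKO were towards higher values, and 99.9% and 96.7% without rescaling.

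**Figure D4:**
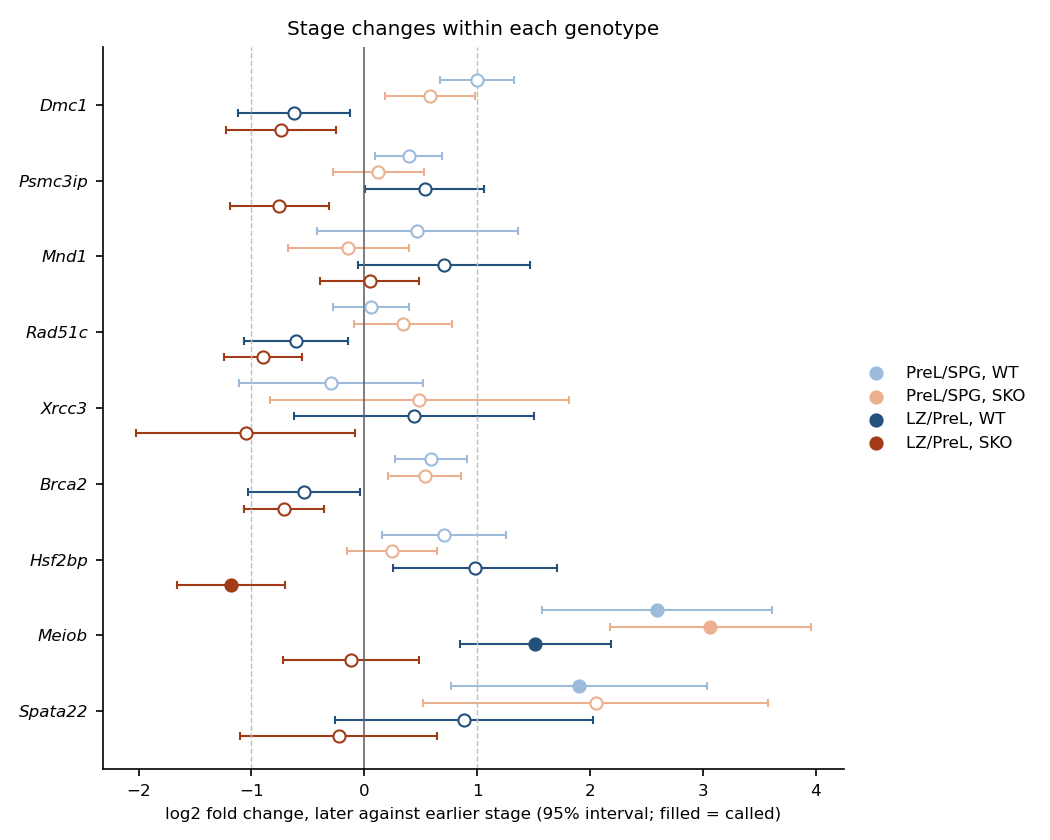
Log2 fold change from SPG to PreL (pale) and from PreL to LZ (dark) in WT (blue) and SKO (red), with 95% intervals from limma; filled points passed both thresholds. Meiob has the largest increases, of 2.60 and 3.06 from SPG to PreL, and from PreL to LZ Hsf2bp and Psmc3ip have positive values in WT and negative ones in SKO.

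The test of whether the genotype effect in LZ differed from that in PreL was passed, at more negative values, by 3 of 9 members, Hsf2bp, Psmc3ip and Meiob, and by 23.1% of all 13530 genes. At more positive values it was passed by 0 members by limma, edgeR or DESeq2, with 0 at an unadjusted p under 0.05, and by 15.1% of all genes. The median of all genes was -0.31 in this contrast, so the values of Hsf2bp (-2.26), Meiob (-1.74) and Psmc3ip (-1.40) are to be read against it. Dmc1, at -0.22 (95% interval -0.79 to 0.34), and Brca2, at -0.29 (-0.74 to 0.17), lay close to that median. More positive values made up 39.5% of the calls and 10.2% without rescaling.

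SKO LZ cells were also set against WT PreL cells, the wildtype stage before. In that comparison Psmc3ip was called lower at -1.70 (SE 0.13, adjusted p = 7.73e-06), as was Rad51c at -1.16 (SE 0.14, adjusted p = 6.83e-05). Of all 12527 genes, 12.1% were called lower. Xrcc3 also passed both thresholds as lower, at -1.68 (SE 0.46, adjusted p = 0.0104). With 11, 11 and 5 reads in SKO LZ, it reached the minimum mean reads for a test only through WT PreL. Its value is therefore a description and is not counted with the other members. Mnd1 was called higher at 1.07 (SE 0.21, adjusted p = 0.00172), where 17.5% of all genes were. The Mnd1 call was lost with TMM scaling, at 0.996, and with an added constant of 50, at 0.97. Higher values made up 59.3% of the calls, and 94.6% without rescaling, where Rad51c turned to 0.43 and the Psmc3ip call was lost at -0.11. As rescaled values, Psmc3ip was lower in SKO LZ than in WT cells of either stage, and Dmc1 had -0.30 (SE 0.15, adjusted p = 0.121).

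Between genes, levels can be compared only per length. Per kilobase of merged exon, the rescaled level in WT LZ was highest for Psmc3ip at 3158 ± 999 (SD, n = 2), followed by Meiob at 1109 ± 245, Dmc1 at 956 ± 235, Hsf2bp at 888 ± 290.2, Mnd1 at 472 ± 57.5, Rad51c at 290.1 ± 25.01, Brca2 at 196 ± 35.4, Spata22 at 83.6 ± 21.4 and Xrcc3 at 75.2 ± 17.4. Meiob, Dmc1 and Hsf2bp did not differ beyond their spread, and neither did Spata22 and Xrcc3. In SKO LZ the level per kilobase was highest for Dmc1 at 1113 ± 187 (n = 3), and Psmc3ip, at 609 ± 33.2, lay between Meiob at 657 ± 76.7 and Mnd1 at 569 ± 46.7. Hsf2bp was at 216 ± 37.3, Rad51c at 185 ± 13.5, Brca2 at 152 ± 8.16, Spata22 at 51.6 ± 12.7 and Xrcc3 at 14.5 ± 7.10.

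The pathway beyond the members was followed in a list of 28 partner genes, which act in end resection, filament loading and filament remodelling. In SPG 0 of the 28 were called (2.06% of all genes were called lower and 3.95% higher) by limma, edgeR or DESeq2. At any fold, 12 had an unadjusted p and 7 an adjusted p under 0.05 by limma. Of all genes, 4.84% were lower and 6.22% higher at that adjusted p. In PreL 1 was called higher (5.32% of all genes), Rad51ap2, at a log2 fold change of 1.76 (SE 0.24, adjusted p = 0.00172), and 1 lower (5.83%), Rad54l, a translocase that remodels recombinase filaments, at -1.26 (SE 0.18, adjusted p = 0.00228). In LZ 1 of the 28 was called lower, where 25.8% of all genes were, and 0 higher, where 13.4% were. It was Brme1, at -1.79 (SE 0.34, adjusted p = 0.00367), a gene whose WT level rose from PreL to LZ by 1.33 (SE 0.34, adjusted p = 0.0171) and whose interaction value was -2.26 (SE 0.47, adjusted p = 0.000952). Without WT LZ replicate 3, 0 partners were called in LZ, and without WT LZ replicate 2, 2 were. The next lowest were Zswim7, which acts with a recombinase paralogue complex, at -0.79 (SE 0.16, adjusted p = 0.00534), Rpa1, the large subunit of replication protein A, at -0.73 (SE 0.26, adjusted p = 0.0485), and Rad51ap1 at -0.51 (SE 0.22, adjusted p = 0.0878). The 4 highest were Dna2, a resection nuclease, at 0.55 (SE 0.31, adjusted p = 0.176), Rad51d (Rad51l3) at 0.38 (SE 0.23, adjusted p = 0.192), Sem1 (Shfm1), a small BRCA2 binding protein, at 0.38 (SE 0.16, adjusted p = 0.0865) and Exo1, an exonuclease of resection, at 0.36 (SE 0.18, adjusted p = 0.132). Their median in LZ was -0.15, near that of all genes.

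**Figure D5:**
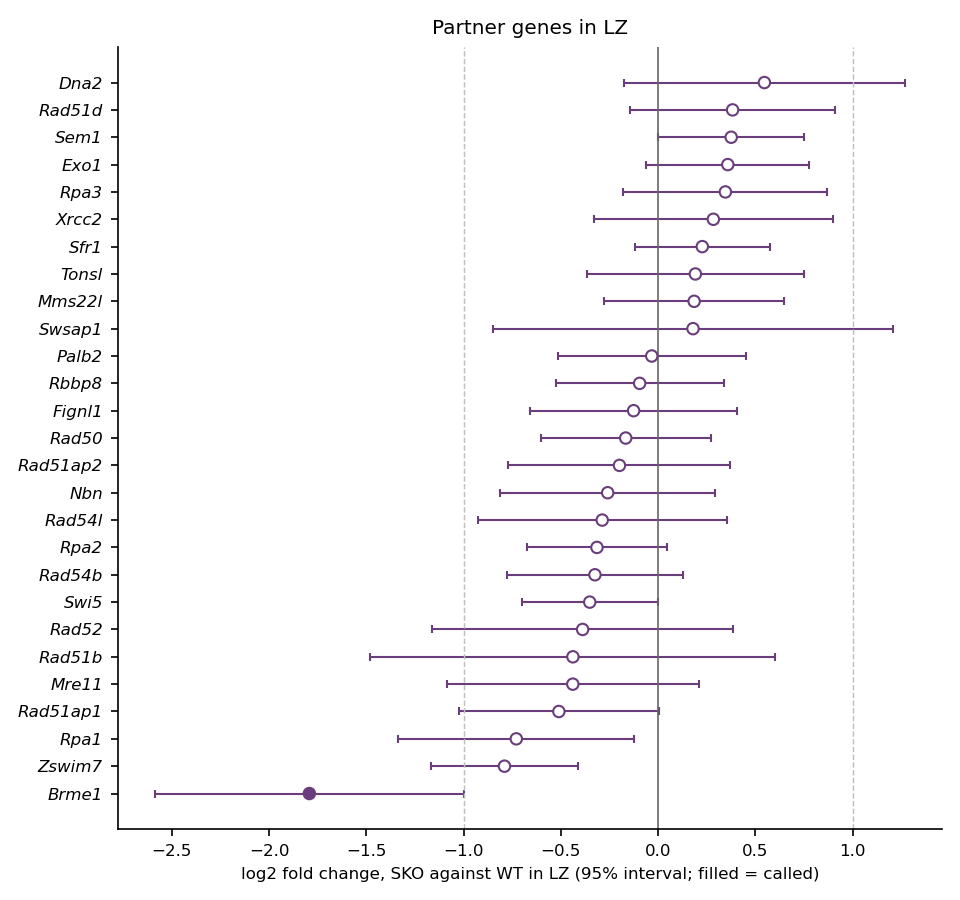
Log2 fold change of SKO against WT in LZ with its 95% interval from limma, for 27 of the 28 partner genes, sorted by value; the filled point passed both thresholds and dashed lines mark a log2 fold change of 1 in either direction. Only Brme1, at -1.79, lies outside the range of the others, which run from -0.79 to 0.55.

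Across the 17 libraries, the pattern of Dmc1 was set against that of 8665 genes (mean of 100 reads or more), by Pearson's r on the log2 scale, as a description over libraries that share groups. The genes most like it were Txlng (r = 0.93), Tanc2 (0.93), Tdp2 (0.92), 6330409N04Rik (0.92) and Rnf103 (0.91). Of the members, Brca2 had an r of 0.63 with Dmc1, Meiob 0.55, Mnd1 0.50, Hsf2bp 0.41, Rad51c -0.01 and Psmc3ip -0.15. These genes were picked by likeness to Dmc1 in the same libraries, so a shared pattern is not a separate result. Txlng had means of 556 ± 110.1 (SD, n = 3) in WT SPG and 1381 ± 227 in SKO SPG, and 986 ± 284 (n = 2) in WT LZ and 1066 ± 147 in SKO LZ. Tanc2 had 1389 ± 188 in WT LZ and 1757 ± 147 in SKO LZ, and Tdp2 3387 ± 1016 and 4705 ± 520. For 6330409N04Rik the LZ means were 3466 ± 1271 and 2921 ± 388, and for Rnf103 649 ± 87.8 and 1005 ± 96.1.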

How the data were processed

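Sorted cells were lysed for Smart-seq2 with oligo(dT) priming, which does not keep the strand. Per the submitters' processing notes and the study's methods, reads were trimmed, aligned to mm10 with TopHat2 2.1.1 and counted with HTSeq 0.11.2 (Cufflinks 2.2.1 is also named). The deposited table holds a signal per gene, which the authors calibrated with ERCC spike-ins and cell input. Dividing each library by its step (calibration factor 1 to 10.4) gave whole reads for 100% of values within 0.01, and replicate pairs differed beyond sampling noise. The calibrated values were rescaled by median-of-ratios size factors taken within each comparison. Where a gene averaged 10 reads or more, it was tested on log2(value + 10) with limma 3.58.1 in R 4.3.3 and Benjamini-Hochberg adjustment over all genes, so that fold changes of low genes are understated. edgeR 4.0.16 and DESeq2 1.42.0 were run on the recovered reads as alternatives, beside other scalings, filters, added constants and left-out libraries. For log2 read ratios, 0.5 was added to both reads. The scripts were tested on simulated data. Text names all 9 members, the partners called or among the 4 lowest and highest in LZ, and the 5 genes most like Dmc1. Members and lists were chosen with earlier results of these data known. Of the symbols, 22805 matched GENCODE vM21 and 477 did not. The result of 1 partner gene is not reported here.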

Additional observations from a re-analysis of the deposited data

Results flagged for a closer look

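For 3 of 9 members the genotype effect in LZ differed from that in PreL in a test of the difference itself, all at more negative values. The same held for 23.1% of all 13530 genes, and the median of all genes was -0.31. The Meiob result was lost in 12 of 19 other settings. The log2 difference of the effects was -1.40 for Psmc3ip (adjusted p = 0.000371), -2.26 for Hsf2bp (adjusted p = 8.42e-05) and -1.74 for Meiob (4930528F23Rik, adjusted p = 0.0452), by limma across all genes.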

How the results depend on the processing

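The LZ calls of Psmc3ip (-2.72 to -1.84) and Hsf2bp (-2.41 to -1.69) held in all 17 alternatives, and their differences between LZ and PreL effects in all 19. Over all single genes, 1129 of the alternative values kept direction and side of the threshold, 50 lost a call, 45 gained one and 34 reversed, and 331 of the counts stayed within 1.5 times the main one against 63 that did not. The cause was not tested where no construction is named. Counts from SPG to PreL in WT include Spata22, with 2 in the analysis reported. Counts of lower members in LZ and in SKO LZ against WT PreL include Xrcc3, with 3 each in the analysis reported.

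Without rescaling, all changes take up the shift of the median gene. Values reversed to -0.25 for Brca2 in SPG, to 0.48 for Rad51c, 0.019 for Xrcc3 and 0.66 for Brca2 in PreL, to 1.21 for Dmc1, 1.22 for Rad51c and 1.29 for Brca2 from PreL to LZ in WT, to 0.87 for Mnd1 from SPG to PreL in SKO, to 0.11 for Dmc1, 0.094 for Psmc3ip, 0.14 for Brca2, 0.55 for Spata22 and 0.73 for Meiob (4930528F23Rik) from PreL to LZ in SKO, and to 1.29 for Dmc1, 0.43 for Rad51c, 0.79 for Brca2 and 0.66 for Hsf2bp in SKO LZ against WT PreL. Members called higher then numbered 4 in PreL (3459 of all 13132 genes) and 9 from PreL to LZ in WT (10992 of 13759). They numbered 7 from SPG to PreL in SKO (5657 of 12882) and 4 in SKO LZ against WT PreL (9100 of 12527). Members called lower numbered 0 from PreL to LZ in SKO (152 of 12477) and 0 in SKO LZ against WT PreL (524 of 12527). Effects more negative in LZ than in PreL numbered 9 (6575 of 13530), and 4 were more positive in PreL than in SPG (5938 of 13530). In SPG 1 partner was called, where 578 of 12846 genes were called lower and 399 higher.

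With TMM, 0 members were called higher in PreL (668 of 13132 genes) and 0 in SKO LZ against WT PreL (2069 of 12527). Mnd1 then reversed to -0.021 from PreL to LZ in SKO. An added constant of 1 left 1 higher call in PreL (592 of 13132 genes). A constant of 50 left 0 there (484), 1 from SPG to PreL in WT (287 of 12657) and 0 in SKO LZ against WT PreL (1921 of 12527). Without a filter, higher calls were 0 in SPG (325 of 19848 genes), 1 in PreL (659 of 19592) and 1 from SPG to PreL in WT (97 of 18851). From SPG to PreL in WT, a mean of at least 50 reads also left 1 (286 of 9607). In 1 fit of all libraries, with 13530 genes tested, 1 partner was called in SPG (509 genes lower, 697 higher). In that fit, members called higher numbered 1 in PreL (847 genes), 2 from PreL to LZ in WT (3013) and 2 from SPG to PreL in SKO (414). With the length and GC trend removed, 1 member, Mnd1, was called higher in LZ (1.17), as were 2185 of 13558 genes. With no fold threshold, members called lower were 1 in SPG, 1 in PreL and 5 in LZ, and members called higher 3 in SPG. Partners called then numbered 7, 7 and 3 at the 3 stages. Of all genes, 622 of 12846 were lower and 799 higher in SPG, and 1318 of 13132 lower and 1034 higher in PreL. In LZ, 4273 of 13724 genes were lower and 2716 higher. From SPG to PreL in WT, 4 members were called higher with no fold threshold. From PreL to LZ, 1 member was called lower in WT and 5 in SKO, and 2 were called higher in WT. In SKO LZ against WT PreL, 5 members were called lower and 2 higher. For the steps between stages and for SKO LZ against WT PreL, the share of all genes at any fold was not determined.

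With the replicate block, 1 member was called lower in SPG (294 of 12846 genes) and 1 in PreL (888 of 13132), and 0 higher in PreL (1256). There, 1 partner was called in SPG, where 514 genes were called higher, and Hsf2bp reversed to -0.22 in PreL. Deviations of libraries with the same number correlated at -0.06 to 0.11, so the numbers were not treated as pairs.

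Leaving out 1 library at a time gave -0.0073 to 0.060 for Brca2 in SPG, -0.17 to 0.077 for Brca2 and -0.042 to 0.43 for Hsf2bp in PreL, -0.086 to 0.46 for Dmc1 in LZ, -0.0096 to 0.17 for Rad51c from SPG to PreL in WT, -0.077 to 0.27 for Psmc3ip and -0.099 to 1.10 for Xrcc3 in SKO, -0.40 to 0.20 for Meiob (4930528F23Rik), -0.091 to 0.20 for Mnd1 and -0.41 to 0.078 for Spata22 from PreL to LZ in SKO, and -0.48 to 0.012 for Dmc1 in the difference between LZ and PreL effects. Counts ranged from 0 to 1 for lower and higher members in SPG, 0 to 1 for lower and 0 to 2 for higher members in PreL, 0 to 2 for partners in LZ, 1 to 2 for higher members from SPG to PreL in either genotype, 0 to 2 for higher members from PreL to LZ in WT, 0 to 2 for lower ones in SKO, and 1 to 2 for higher members in SKO LZ against WT PreL. The depth limits Xrcc3 and Spata22 most, with 5 to 11 and 9 to 23 reads in the SKO LZ libraries.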
